A study of Mus musculus with 16 samples.

Results

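The 50 genes described here encode the DNA replication machinery and its supply, from origin licensing to chromatin assembly, and were taken by their symbols from the 53090 genes of each table, on a list drawn up with earlier results of these data known. All 50 were found. They were followed in 16 RNA-seq libraries from mouse splenic CD4+ T cells, 4 in each of 4 groups. The WT groups came from C57BL/6 mice and the Aim2-/- groups from mice of the same background that lack AIM2, a cytosolic sensor of double-stranded DNA. Naïve cells (Tn) were selected on magnetic beads as CD44low CD62Lhigh cells and were not cultured. Treg cells were naïve cells after 2 days (48 h) of stimulation with TGFβ and IL-2. The paper names anti-CD3 and anti-CD28 antibodies for its stimulation of CD4+ T cells and does not restate them for this culture. Both genotypes were bred in 1 facility and matched for sex and age, their age was not stated, and Treg names a culture condition, since no sort for FOXP3 was described. The titles number the mice or cultures 1 to 4 but no label describes how they were kept apart, so that p-values measure the spread between these libraries.

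Before a cell copies its genome, the origin recognition complex with CDC6 and CDT1 loads the MCM2-7 helicase onto origins, a step called licensing. In S phase CDC45 and the GINS complex switch the helicase on, polymerase α with primase starts each strand, polymerases δ and ε extend it on the PCNA clamp, RPA covers single strands, and FEN1 and LIG1 join the Okazaki fragments. Most of these genes are transcribed late in G1 by E2F factors, which are held by RB proteins in resting cells. A naïve T cell rests outside the cycle, and stimulation of its receptor with a costimulus drives it to divide.

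As the promoters of such genes are known for E2F sites, the window from 250 bases before to 50 bases after the start was searched, on both strands, for TTTCGCGC, TTTGGCGC, TTTCCCGC and TTTGCCGC, using RefSeq windows on GRCm38.p6. At least 1 of these words stood in 15 of the 41 members that have a window (36.6%) and in 704 of 27025 genes (2.60%). The latter are all genes with a window, expressed in these cells or not, and were not matched to the members. The 200 bases before the start of 3 members are shown because they hold the words outside any annotated gene (GENCODE M21), with the words in capitals. Mcm5 and Mcm6 code for helicase subunits and Pola1 for the catalytic subunit of polymerase α.
Mcm5 (chr8:75109309-75109508, plus strand): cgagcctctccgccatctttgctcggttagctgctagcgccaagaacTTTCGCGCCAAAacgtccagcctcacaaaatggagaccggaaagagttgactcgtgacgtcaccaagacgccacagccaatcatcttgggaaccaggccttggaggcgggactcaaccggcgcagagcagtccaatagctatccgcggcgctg
Mcm6 (chr1:128359706-128359905, minus strand): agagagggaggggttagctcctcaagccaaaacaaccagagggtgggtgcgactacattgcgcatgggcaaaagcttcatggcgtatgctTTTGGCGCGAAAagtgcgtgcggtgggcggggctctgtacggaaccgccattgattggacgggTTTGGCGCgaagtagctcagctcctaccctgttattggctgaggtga
Pola1 (chrX:93632156-93632355, minus strand): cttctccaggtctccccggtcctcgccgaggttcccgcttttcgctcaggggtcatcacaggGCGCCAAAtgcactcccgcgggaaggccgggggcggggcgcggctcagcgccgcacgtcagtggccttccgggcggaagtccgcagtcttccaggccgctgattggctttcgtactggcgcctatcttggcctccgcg
In Mcm5 the word TTTCGCGC began 153 bases before the start and overlapped GCGCCAAA, the reverse complement of TTTGGCGC. Mcm6 held an overlapping pair of the words that began 110 bases before the start and a separate word further down, which ended 40 bases before it. Pola1 held GCGCCAAA from 138 to 131 bases before its start.

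The shares differed between groups of genes. Of other genes of the fork and of licensing 33.3% held an E2F word (11 of 33 with a window), of E2F, RB and G1/S regulators 46.2% (6 of 13), of other nucleotide supply genes 5.56% (1 of 18) and of mitosis genes 11.5% (3 of 26). The NF-Y word CCAAT was in 63.4% of the 50 genes' windows against 41.1% of all genes, and in 76.9% of those of mitosis genes. The CHR words TTTGAA and TTCGAA, known from genes of the late cycle, were in 22% of the members' windows, against 21.7% of all genes and 76.9% of mitosis genes. A match is a run of letters, not a measured site, and the 9 members without a window were Gmnn, Mcm4, Gins1, Gins2, Gins4, Tipin, Rfc2, Prim2 and Pole. Windows follow RefSeq starts, and some, such as those of Timeless, E2f1, Dut and Cdc6, lay wholly inside the gene as annotated in GENCODE M21. The shares therefore mix sequence around a gene's outer start with sequence within genes.

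**Figure D1:**
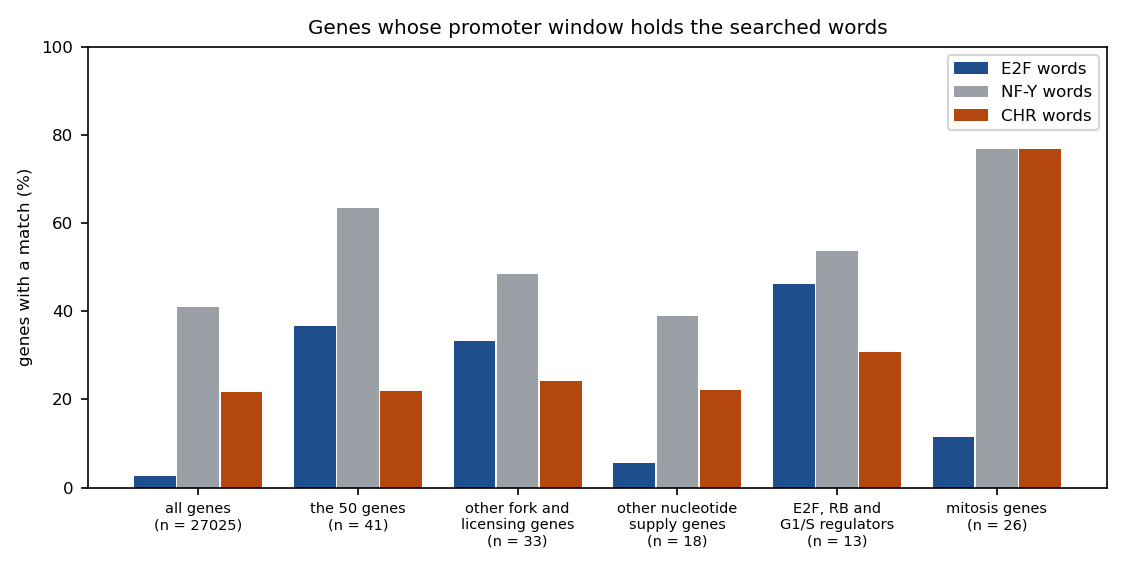
Percent of genes (y axis) with at least 1 match to the E2F, NF-Y or CHR words in the promoter window, for all genes, the 50 replication genes and 4 other lists, n being the genes with a window. The E2F bar is 36.6% for the replication genes and 2.60% for all genes, whereas the CHR bar is 76.9% for the mitosis genes and 22% for the replication genes. All genes include those not expressed in these cells.

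The libraries held 22516394 to 34533297 counts, and levels are given as CPM, that is counts scaled to library size with TMM factors. Before that scaling, a floor of 3 counts equals 0.0869 CPM in the deepest library and 0.133 CPM in the shallowest, and covers counting error only. Aim2 was at 37.9, 36.9, 32.3 and 33.2 CPM in WT Tn, 9.26, 6.77, 6.61 and 6.99 CPM in Aim2-/- Tn, 35.7, 40.8, 43.3 and 39.9 CPM in WT Treg and 10.8, 9.95, 8.86 and 7.17 CPM in Aim2-/- Treg, lower in every Aim2-/- library with counts left in each. The T cell genes Cd4 and Cd3e were high in all libraries, Foxp3 was at 1.98 to 4.02 CPM in Tn and 278 to 573 CPM in Treg libraries, and of genes of other cell types Ms4a1 (B cells) and S100a8 (myeloid cells) were at 0 and Cd8a was at most 0.337 CPM. Others were present, with Cd8b1 at 8.94 to 12.2 CPM in Tn and 1.93 to 3.88 CPM in Treg libraries, and the myeloid genes Itgam and Csf1r at up to 4.7 and 2.89 CPM and the B cell gene Cd79a at up to 1.73 CPM, each highest in a Tn library. Ighm made up nearly all of the summed level of 6 B cell genes, 423 to 575 CPM in Tn and 121 to 169 CPM in Treg libraries. The 4 WT Tn libraries stood in pairs. Counts over genes differed by a chi-square per degree of freedom of 13.5 between replicates 1 and 2 and of 11.5 between replicates 3 and 4, but of 73.3 to 94.2 across the pairs, and Ctla4, an activation gene that is no member, was at 79.5 and 80.0 CPM in the first pair and at 12.8 and 17.6 CPM in the second. The tests that include these libraries were therefore repeated without either pair. Each repeat takes the WT Tn spread from the remaining pair alone, so that its p-values leave out the spread between the pairs. Calls that changed are given beside the result, as are fold changes with culture in WT that moved by over 1.5-fold. Such shifts in size were not listed for the comparison of Tn genotypes or for the interaction.

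The first question was how the replication genes changed when naïve cells entered the Treg culture. The genes rose together in both genotypes, and only the rise of Cdt1 in WT did not pass the test. In WT cells 49 of the 50 passed the test as higher in Treg and 0 as lower, with a median rise of 6.82-fold (log2 fold change 2.77, all genes tested -0.05), and in Aim2-/- cells all 50 passed as higher, with a median of 6.97-fold (log2 2.80, all genes -0.04). Culture changed most genes, as 37.7% of all genes tested were called higher and 39.2% lower in WT, and 39.1% and 40.2% in Aim2-/- (edgeR quasi-likelihood test, adjusted p under 0.05). Together the 50 genes took 0.154% to 0.177% of the TMM-scaled size of a Tn library and 0.951% to 0.995% of that of a Treg library. These are levels relative to the whole library, and more RNA per cell and more cells that express a gene cannot be told apart in them. Without either pair of WT Tn replicates the fold change in WT moved by less than 1.5-fold in 47 of the 50, with all 50 called without replicates 1 and 2 and 49 without replicates 3 and 4, and moved by more in Orc1, Cdt1 and Mcm10.

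**Figure D2:**
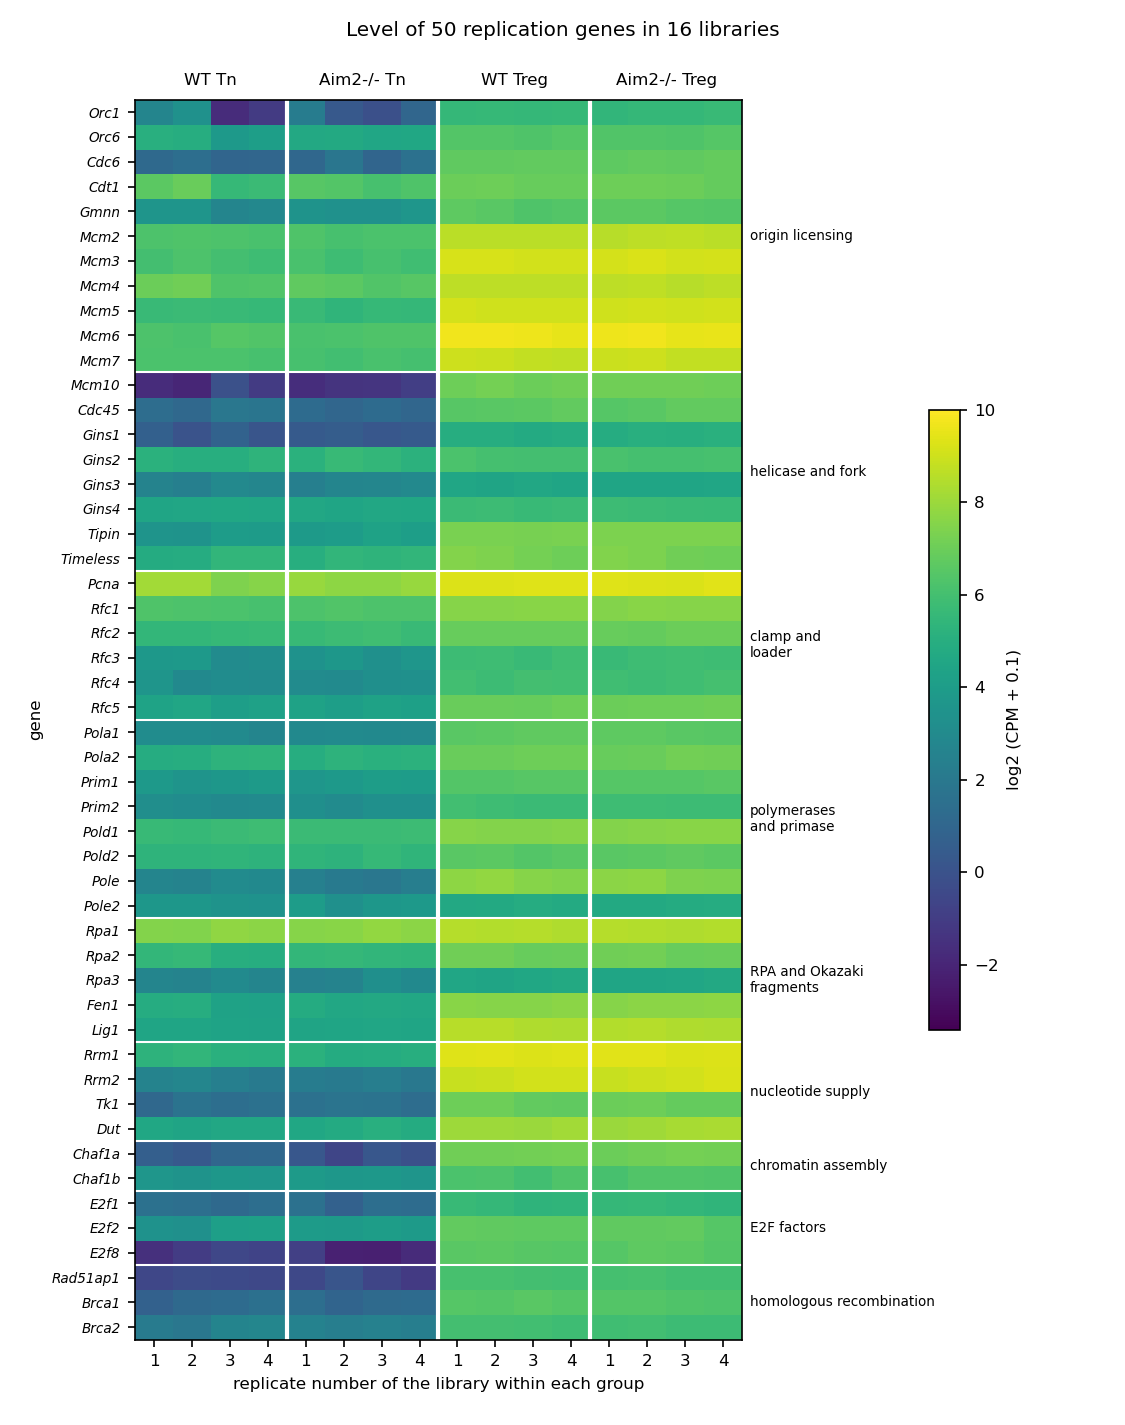
Level of each of the 50 genes (rows, by role) in each of the 16 libraries (columns, replicates 1 to 4 of each group), as log2 (CPM + 0.1) by colour. The Treg columns are brighter for nearly every gene and look alike in both genotypes, while the Tn columns of Orc1, Cdt1 and Mcm10 differ between WT replicates 1 and 2 and replicates 3 and 4.

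Licensing genes rose by a median of 8.35-fold in WT and 8.25-fold in Aim2-/- cells, with 10 of 11 called in WT and all 11 in Aim2-/-. Cdc6, which loads the helicase, was at 2.18, 2.65, 1.86 and 1.91 CPM in WT Tn and 106, 105, 108 and 112 CPM in WT Treg libraries. Every Treg library was far above every Tn library, a 49.0-fold difference (log2 5.61 ± 0.12, SE over 4 against 4 libraries, adjusted p = 6e-10). In Aim2-/- cells Cdc6 went from 2.02, 3.59, 1.88 and 2.92 CPM to 102, 111, 107 and 114 CPM, 40.8-fold.

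The helicase subunits started higher. Mcm2 was at 77.1, 78.6, 75.7 and 70.9 CPM in WT Tn and 391, 390.5, 388 and 398 CPM in WT Treg libraries (5.08-fold, log2 2.34 ± 0.06, adjusted p = 1.9e-09). In Aim2-/- cells it was at 78.2, 68.3, 73.6 and 73.3 CPM and 384, 413, 419 and 393 CPM (5.44-fold). Its partner Mcm5, whose promoter is shown above, rose from 51.5, 54.0, 51.4 and 46.8 CPM to 553, 524, 517 and 521 CPM in WT (10.2-fold, log2 3.34 ± 0.07, adjusted p = 6e-10). The Aim2-/- libraries gave 50.7, 41.3, 46.8 and 46.0 CPM and 524, 536, 517 and 542 CPM (11.4-fold). The 6 subunits act as 1 ring, and in WT their rises ran from 3.72-fold for Mcm4 to 10.2-fold for Mcm5, with Mcm6 at 9.78, Mcm3 at 8.35, Mcm7 at 6.27 and Mcm2 at 5.08. Their order in Aim2-/- cells was the same at both ends, 4.25-fold for Mcm4 and 11.4-fold for Mcm5.

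Cdt1, the loader that cells destroy once S phase begins, moved least. It was at 98.3, 122, 48.0 and 54.0 CPM in WT Tn and 128, 132, 117 and 116 CPM in WT Treg libraries, and the second WT Tn library lay above 2 of the Treg libraries. The rise of 1.5-fold (log2 0.59 ± 0.27) did not pass the test, with an adjusted p of 0.077 that ran from 4.5e-06 to 0.30 over 20 alternatives and passed in 8 of them. Without WT Tn replicates 1 and 2 the log2 difference was 1.19 (adjusted p = 4.5e-06), and without replicates 3 and 4 it was 0.12 (adjusted p = 0.30). In Aim2-/- cells Cdt1 went from 91.0, 86.0, 67.5 and 78.5 CPM to 131, 133, 126 and 114 CPM and passed (1.55-fold, log2 0.63 ± 0.10, adjusted p = 0.00012). Its inhibitor geminin (Gmnn) rose much more, from 11.9, 11.9, 6.29 and 7.22 CPM to 100.5, 96.3, 78.7 and 84.8 CPM in WT (9.45-fold, log2 3.24 ± 0.22, adjusted p = 6.9e-07) and from 11.3, 10.2, 10.4 and 12.4 CPM to 98.3, 97.0, 87.7 and 85.3 CPM in Aim2-/- cells (8.25-fold).

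Of the origin recognition complex, Orc1 and Orc6 were members. Orc1, the subunit whose level follows the cycle, was at 6.29, 10.4, 0.211 and 0.375 CPM in WT Tn libraries, with a 28.4-fold ratio between the mean of replicates 1 and 2 and that of 3 and 4, and at 46.0, 47.6, 46.0 and 47.7 CPM in WT Treg libraries. The fold of 10.6 (log2 3.41 ± 0.86, adjusted p = 0.0053) therefore had the widest interval of the 50, and ranged on the log2 scale from 2.45 to 7.18 over 19 alternatives, all past the threshold, with 7.18 without WT Tn replicates 1 and 2 and 2.45 without replicates 3 and 4. The Aim2-/- libraries gave 4.57, 1.17, 0.826 and 1.94 CPM in Tn and 43.2, 46.7, 46.7 and 50.4 CPM in Treg (22-fold). Orc6 rose 3.47-fold in WT and 3.33-fold in Aim2-/- cells. Of the subunits on the wider list, Orc2 (log2 1.52) and Orc3 (log2 0.86) also rose in WT, while Orc4 (log2 0.18, adjusted p = 0.29) and Orc5 (log2 -0.04, adjusted p = 0.75) did not pass.

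Genes that turn the helicase on differed widely, from 1.88-fold for Gins2 to the rise of Mcm10 in WT. Mcm10, needed to open the origin, was near the floor in Tn libraries at 0.207, 0.158, 0.845 and 0.375 CPM in WT cells and 0.225, 0.283, 0.300 and 0.427 CPM in Aim2-/-, from 4 to 20 counts each. Treg libraries held 134, 145, 127 and 139 CPM in WT cells and 134, 139, 136 and 134 CPM in Aim2-/-, at log2 differences of 8.42 ± 0.31 (adjusted p = 1.3e-08) and 8.74 ± 0.13, the highest of the 50 in WT and, just above E2f8, in Aim2-/- cells. In WT this difference was 7.76 without Tn replicates 1 and 2 and 9.45 without replicates 3 and 4. The helicase cofactor Cdc45 went from 2.56, 2.06, 3.67 and 3.34 CPM to 92.4, 94.3, 99.5 and 108 CPM in WT (33.2-fold, log2 5.05 ± 0.17, adjusted p = 7e-09) and from 2.32, 1.95, 2.33 and 1.94 CPM to 87.4, 93.9, 109.6 and 109 CPM in Aim2-/- cells (46.5-fold). The 4 GINS subunits, which bind it as 1 complex, differed among themselves. Gins1 rose 23.0-fold in WT but Gins3 3.55-fold, Gins4 2.22-fold and Gins2 1.88-fold. Gins2 was already at 35.9, 32.2, 31.8 and 39.4 CPM in WT Tn and reached 73.2, 65.5, 64.3 and 64.7 CPM in WT Treg (log2 0.91 ± 0.09, adjusted p = 1e-05), and shared reads with other genes touch its count in nearly all libraries. The Aim2-/- libraries gave 35.3, 49.8, 45.0 and 36.6 CPM and 70.5, 66.1, 66.0 and 68.1 CPM (1.61-fold).

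Timeless and Tipin form the complex that protects the fork. Timeless was at 28.5, 29.9, 42.5 and 42.0 CPM in WT Tn and 179.8, 173, 147 and 130.5 CPM in WT Treg libraries (4.32-fold, log2 2.11 ± 0.16, adjusted p = 1.7e-06). The Aim2-/- libraries gave 32.4, 43.3, 39.5 and 42.0 CPM and 174, 166, 137 and 132 CPM (3.85-fold). Tipin rose 11.3-fold in WT and 9.68-fold in Aim2-/- cells, more than its partner.

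The clamp and its loader rose less, by a median of 3.66-fold in WT and 3.68-fold in Aim2-/- cells, with all 6 called in each. Pcna, the clamp, was the highest of the 50 per kilobase of exon in WT Tn (96.1 CPM per kb) and in WT Treg (266 CPM per kb). It was at 282, 278, 173 and 190.2 CPM in WT Tn and 635, 623, 656 and 642 CPM in WT Treg libraries (2.71-fold, log2 1.44 ± 0.16, adjusted p = 1.9e-05), and at 247, 215, 209.5 and 242 CPM and 639.6, 628, 614 and 669 CPM in the Aim2-/- groups (2.77-fold). The loader is built of RFC1 and 4 small subunits. Rfc1 went from 80.5, 77.2, 74.0 and 68.0 CPM to 189.6, 191, 194 and 196 CPM in WT (2.51-fold, log2 1.33 ± 0.07, adjusted p = 1.1e-07) and from 76.2, 82.0, 77.3 and 76.0 CPM to 183, 194, 189 and 189.5 CPM in Aim2-/- cells (2.41-fold). Rfc3 went from 13.4, 13.8, 8.40 and 8.79 CPM to 55.8, 56.6, 51.2 and 59.9 CPM in WT (4.93-fold, log2 2.30 ± 0.17, adjusted p = 1.3e-06) and from 10.8, 12.9, 9.80 and 12.5 CPM to 51.6, 56.8, 59.2 and 58.2 CPM in Aim2-/- cells (4.87-fold). Rfc2 rose like Rfc1 (2.51-fold in WT), and Rfc4 and Rfc5 rose 6.45-fold and 6.03-fold.

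Polymerase and primase genes rose by a median of 4.89-fold in WT and 4.66-fold in Aim2-/- cells, all 8 of them called in each. Pola1, shown above, went from 8.57, 8.42, 7.85 and 6.47 CPM to 95.9, 99.9, 107 and 105 CPM in WT (12.7-fold, log2 3.67 ± 0.11, adjusted p = 3e-09) and from 7.64, 8.0, 7.73 and 7.35 CPM to 103, 101, 93.6 and 91.1 CPM in Aim2-/- cells (12.5-fold). Prim1, the primase that lays the first bases, went from 13.8, 11.6, 12.9 and 14.6 CPM to 85.2, 83.7, 92.7 and 91.6 CPM in WT (6.53-fold, log2 2.71 ± 0.09, adjusted p = 7e-09) and from 12.5, 14.3, 16.7 and 16 CPM to 87.5, 87.0, 87.8 and 94.2 CPM in Aim2-/- cells (5.94-fold). The catalytic subunits of the extending polymerases then parted. Pold1, of polymerase δ, was at 48.6, 47.0, 52.2 and 56.3 CPM in WT Tn and 187, 185, 181 and 189.6 CPM in WT Treg (3.56-fold, log2 1.83 ± 0.07, adjusted p = 1.9e-08) and at 52.8, 53.9, 53.3 and 54.2 CPM and 186, 192, 194 and 195 CPM in the Aim2-/- groups (3.55-fold). Pole, of polymerase ε, was at only 6.49, 5.89, 8.36 and 7.77 CPM in WT Tn but at 213, 224, 193 and 174 CPM in WT Treg (27.6-fold, log2 4.79 ± 0.14, adjusted p = 3.2e-09). In the Aim2-/- groups it was at 5.28, 4.28, 3.68 and 4.96 CPM and 203, 209, 173 and 162 CPM (40.7-fold). Their partners did not follow the catalytic subunits, with Pole2 at 2.26-fold and Pold2 at 2.30-fold in WT. Pola2 rose 3.66-fold and Prim2 6.53-fold, the latter like Prim1.

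Genes for single-strand binding and Okazaki fragments had the lowest median, 3.44-fold in WT and 3.25-fold in Aim2-/- cells, with all 5 called in each. Rpa1, the large RPA subunit, was high in resting cells at 184, 176, 218 and 206 CPM in WT Tn and reached 365, 357, 362 and 344 CPM in WT Treg (1.78-fold, log2 0.83 ± 0.08, adjusted p = 5.8e-06). The Aim2-/- libraries gave 190.4, 198, 224 and 201 CPM and 361, 351, 340.1 and 345 CPM (1.71-fold). RPA also serves repair outside S phase, and its smaller subunits Rpa2 and Rpa3 rose 3.24-fold and 3.44-fold in WT. Fen1, the flap nuclease, went from 29.4, 31.2, 19.9 and 18.9 CPM to 193, 187, 191 and 207 CPM in WT (7.66-fold, log2 2.94 ± 0.17, adjusted p = 2.2e-07) and from 28.4, 24.7, 25.3 and 24.4 CPM to 187, 201, 206 and 208 CPM in Aim2-/- cells (7.75-fold). The ligase gene Lig1 went from 22.1, 22.5, 20.8 and 20.2 CPM to 372, 371, 334 and 324 CPM in WT (16-fold, log2 4.00 ± 0.08, adjusted p = 6e-10) and from 21.5, 22.2, 23.0 and 22.2 CPM to 353, 368, 339 and 326 CPM in Aim2-/- cells (15.5-fold), the most of these 5.

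Nucleotide supply rose by a median of 27.4-fold in WT and 28.7-fold in Aim2-/- cells, with all 4 genes called in each. Ribonucleotide reductase, which makes deoxynucleotides, pairs a large subunit (Rrm1) with a small one (Rrm2) that is made in S phase. Rrm1 went from 38.5, 42.3, 34.7 and 32.9 CPM to 662, 671, 635 and 648 CPM in WT (17.2-fold, log2 4.11 ± 0.09, adjusted p = 9.2e-10) and from 35.9, 28.5, 29.4 and 32.3 CPM to 666, 679, 614 and 625 CPM in Aim2-/- cells (20.3-fold). Rrm2 went from 5.87, 6.52, 5.19 and 4.09 CPM to 471, 494, 544 and 548 CPM in WT (92.8-fold, log2 6.54 ± 0.16, adjusted p = 1e-09) and from 4.61, 4.32, 4.88 and 3.87 CPM to 466, 506, 543 and 602 CPM in Aim2-/- cells (119-fold). Rrm2b, the alternative small subunit used outside S phase, fell instead (log2 -0.96 in WT, adjusted p = 0.00082). Thymidine kinase divides the same way between a cytosolic and a mitochondrial gene. Tk1, the cytosolic one, went from 2.07, 3.16, 2.66 and 2.90 CPM to 131, 132, 109 and 107 CPM in WT (43.4-fold, log2 5.44 ± 0.15, adjusted p = 2.5e-09) and from 2.89, 3.34, 3.19 and 2.56 CPM to 129, 134, 115 and 113 CPM in Aim2-/- cells (40.6-fold). Tk2, the mitochondrial one, fell (log2 -2.46 in WT, adjusted p = 5.7e-09). Dut, which keeps uracil out of DNA, went from 23.9, 21.5, 24.7 and 24.6 CPM to 259.7, 267, 252 and 278 CPM in WT (10.9-fold, log2 3.45 ± 0.08, adjusted p = 6.2e-10) and from 24.1, 27.9, 33.6 and 28.5 CPM to 255, 274, 300.3 and 314 CPM in Aim2-/- cells (9.95-fold).

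Chaf1a and Chaf1b code for the CAF-1 complex that puts histones onto new DNA. Chaf1a was at 1.45, 1.19, 1.94 and 2.01 CPM in WT Tn and 138, 138, 143 and 148 CPM in WT Treg (83.9-fold, log2 6.39 ± 0.15, adjusted p = 1e-09). In the Aim2-/- groups it was at 1.09, 0.567, 1.09 and 0.821 CPM and 128, 138, 149 and 140.0 CPM (156-fold). Chaf1b rose far less, 5.92-fold in WT and 5.95-fold in Aim2-/- cells.

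The E2F genes on the list comprise activators (E2f1, E2f2) and E2f8, a repressor that is itself an E2F target. E2f1 went from 2.94, 2.69, 2.20 and 2.66 CPM to 48.7, 46.4, 39.4 and 40.9 CPM in WT (16.3-fold, log2 4.03 ± 0.13, adjusted p = 5.1e-09) and from 2.96, 1.57, 2.63 and 2.46 CPM to 46.4, 48.3, 44.0 and 41.8 CPM in Aim2-/- cells (18.7-fold). E2f2 went from 10.7, 9.80, 18.1 and 18.8 CPM to 110.5, 106, 101 and 101 CPM in WT (7.13-fold, log2 2.83 ± 0.21, adjusted p = 1.4e-06) and from 15.3, 14.8, 16.4 and 15.1 CPM to 107, 107, 108 and 89.2 CPM in Aim2-/- cells (6.63-fold). E2f8 was close to the floor in Tn, at 0.242, 0.395, 0.591 and 0.511 CPM in WT cells and 0.450, 0.126, 0.113 and 0.197 CPM in Aim2-/- (3 to 15 counts). It reached 95.1, 99.95, 91.9 and 88.4 CPM in WT Treg and 89.0, 103, 96.9 and 86.7 CPM in Aim2-/- Treg, at log2 differences of 7.72 ± 0.18 (adjusted p = 9.4e-10) and 8.72 ± 0.23.

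Recombination genes, which mend broken forks, rose by a median of 39.0-fold in WT and 36.2-fold in Aim2-/- cells, all 3 called in each. Rad51ap1 went from 0.587, 0.712, 0.676 and 0.614 CPM to 67.8, 67.8, 63.8 and 60.9 CPM in WT (98.2-fold, log2 6.62 ± 0.11, adjusted p = 5.1e-10) and from 0.600, 1.01, 0.563 and 0.361 CPM to 65.5, 68.4, 62.4 and 62.4 CPM in Aim2-/- cells (99.9-fold). Brca1 went from 1.59, 2.17, 2.32 and 2.79 CPM to 87.3, 86.3, 94.6 and 85.8 CPM in WT (39.0-fold, log2 5.28 ± 0.15, adjusted p = 3.1e-09) and from 2.59, 1.76, 2.25 and 2.36 CPM to 85.9, 86.6, 78.1 and 76.1 CPM in Aim2-/- cells (36.2-fold). Brca2 rose 11.6-fold and 10.9-fold.

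**Figure D3:**
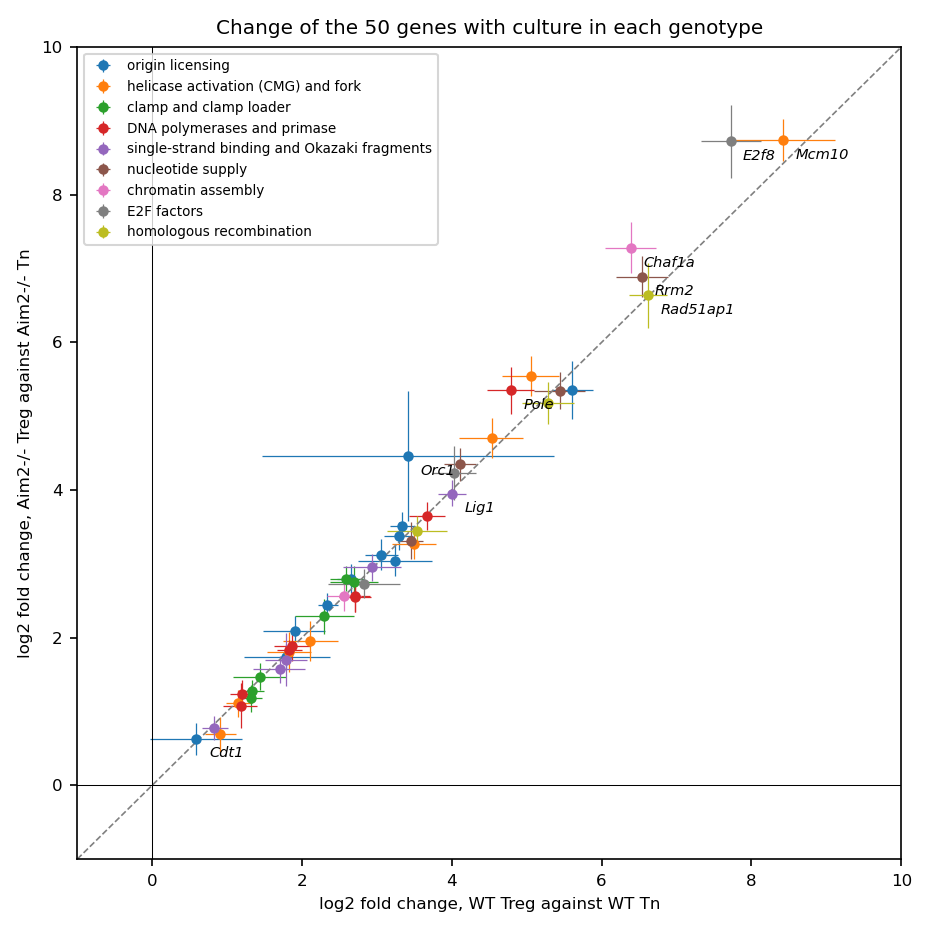
Log2 fold change with culture in WT (x axis) and in Aim2-/- cells (y axis) for each of the 50 genes, coloured by role, with 95% intervals as bars and equality as the dashed line. The points lie between Cdt1, at 0.59 and 0.63, and Mcm10, at 8.42 and 8.74, and Orc1 has the widest bars.

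The members that held an E2F word had a median log2 difference with culture in WT of 3.06 (15 genes, 0.59 to 5.61), and those with a window but no such word a median of 2.70 (26 genes, 0.83 to 8.42). Cdt1, Mcm6 and Mcm5 are among the first, and the second range reaches further up, with Mcm10, E2f8, Rad51ap1, Rrm2 and Chaf1a above every gene of the first. Windows inside the annotated gene fell in both sets, with Cdc6 in the first and Timeless, E2f1 and Dut in the second. On the wider lists, 30 of the 39 other genes of the fork and of licensing were called higher and 1 lower in WT (median log2 2.06), from Esco2 (log2 8.71), which ties sister chromatids, to Pold4 (log2 -0.55), whose 2 rows in the tables share their reads. Of 21 other nucleotide supply genes 17 were called higher and 3 lower (median 1.97), from Tyms, thymidylate synthase (log2 5.04), to Tk2. Of 18 E2F, RB and G1/S regulators 14 were called higher and 3 lower (median 1.93). Ccna2, the S-phase cyclin A2, rose most (log2 7.91), and Cdkn1b, the inhibitor p27 of resting cells, fell most (log2 -2.78). Of 30 mitosis genes 28 were called higher and 1 lower (median 6.41), from Cdk1 (log2 8.51) to Pttg1 (log2 -1.46). The members' own median of 2.77 lay above the first 3 of these lists and below mitosis, values that are side by side and were not tested against each other.

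As a single value per library, log2 CPM was averaged over the 50 genes after subtracting for each gene its average in the 16 libraries. This score was -1.63 ± 0.06 (SD, n = 4) in WT Tn, -1.64 ± 0.04 in Aim2-/- Tn, 1.63 ± 0.03 in WT Treg and 1.64 ± 0.02 in Aim2-/- Treg. It ran from -1.69 to -1.58 in WT Tn and from -1.69 to -1.59 in Aim2-/- Tn. In the cultures it ran from 1.60 to 1.66 in WT and from 1.62 to 1.67 in Aim2-/-. The ranges of the genotypes overlap in each state and those of the states lie far apart. The narrow range in WT Tn averages over roles that differed between its libraries in opposite directions. Over licensing genes alone the score was -1.18, -1.05, -1.96 and -1.88 in WT Tn replicates 1 to 4. Over helicase and fork genes it was -1.87, -2.06, -1.40 and -1.64.

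The next question was whether AIM2 loss moved these genes in naïve cells. In edgeR 0 of the 49 members tested were called, where 0.231% of all genes were, and Mcm10 was not tested for lack of counts. limma-voom also called 0, where it called 0.223% of all genes. DESeq2 called 1, Pole, where it called 0.945% of all genes. At an unadjusted p under 0.05 there were 4 members (8.16%) in edgeR, against 10.3% of all genes. There were 5 by limma-voom and 4 by DESeq2, for which the share of all genes was not counted. The median difference, Aim2-/- minus WT, was 0.04 (all genes 0.01), with 29 members above 0 and 20 below. In 2 members (4.08%) the CPM of the genotypes did not overlap, against 6.95% of all genes, which is no more than the background.

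Those 2 were Pole and Chaf1a. Pole, the polymerase ε gene (chr5:110286306-110337474, plus strand), was at 6.49, 5.89, 8.36 and 7.77 CPM in WT Tn and 5.28, 4.28, 3.68 and 4.96 CPM in Aim2-/- Tn. All 4 Aim2-/- libraries were below all 4 WT libraries, at log2 -0.64 ± 0.17 (95% interval -1.02 to -0.26, unadjusted p = 0.0038, adjusted p = 0.32). DESeq2 gave -0.66 (adjusted p = 0.048), and the adjusted p ran from 0.042 to 0.69 over 20 alternatives, 2 of them past the threshold. Chaf1a, at 1.45, 1.19, 1.94 and 2.01 CPM against 1.09, 0.567, 1.09 and 0.821 CPM, gave log2 -0.88 ± 0.29 (95% interval -1.53 to -0.24, unadjusted p = 0.011, adjusted p = 0.4). These were 18 to 59 counts a library, in a gene with shared reads. Dut (log2 0.27 ± 0.11, adjusted p = 0.44), Rfc2 (log2 0.21 ± 0.09, adjusted p = 0.44) and Tipin (log2 0.32 ± 0.15, adjusted p = 0.49) had the next smallest p-values and overlapped between genotypes.

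The 95% interval lay within 0.5 of 0 on the log2 scale for 27 of the 49 members, and was widest for Orc1 (-3.71 to 1.68 around -1.01). For Orc1, WT Tn replicates 1 and 2 lay above every Aim2-/- Tn library, and replicates 3 and 4 lay below every one. Erythroid markers were higher in Aim2-/- Tn libraries as a sum, but 0 of the 4 tested were called (edgeR, smallest adjusted p = 0.36). The summed CPM of 6 such genes was 1.23 to 3.97 in WT Tn and 5.28 to 7.94 in Aim2-/- Tn, without overlap, and the 6 myeloid genes summed to 3.52 to 8.49 and 6.15 to 8.03. Their part in these values was not tested.

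**Figure D4:**
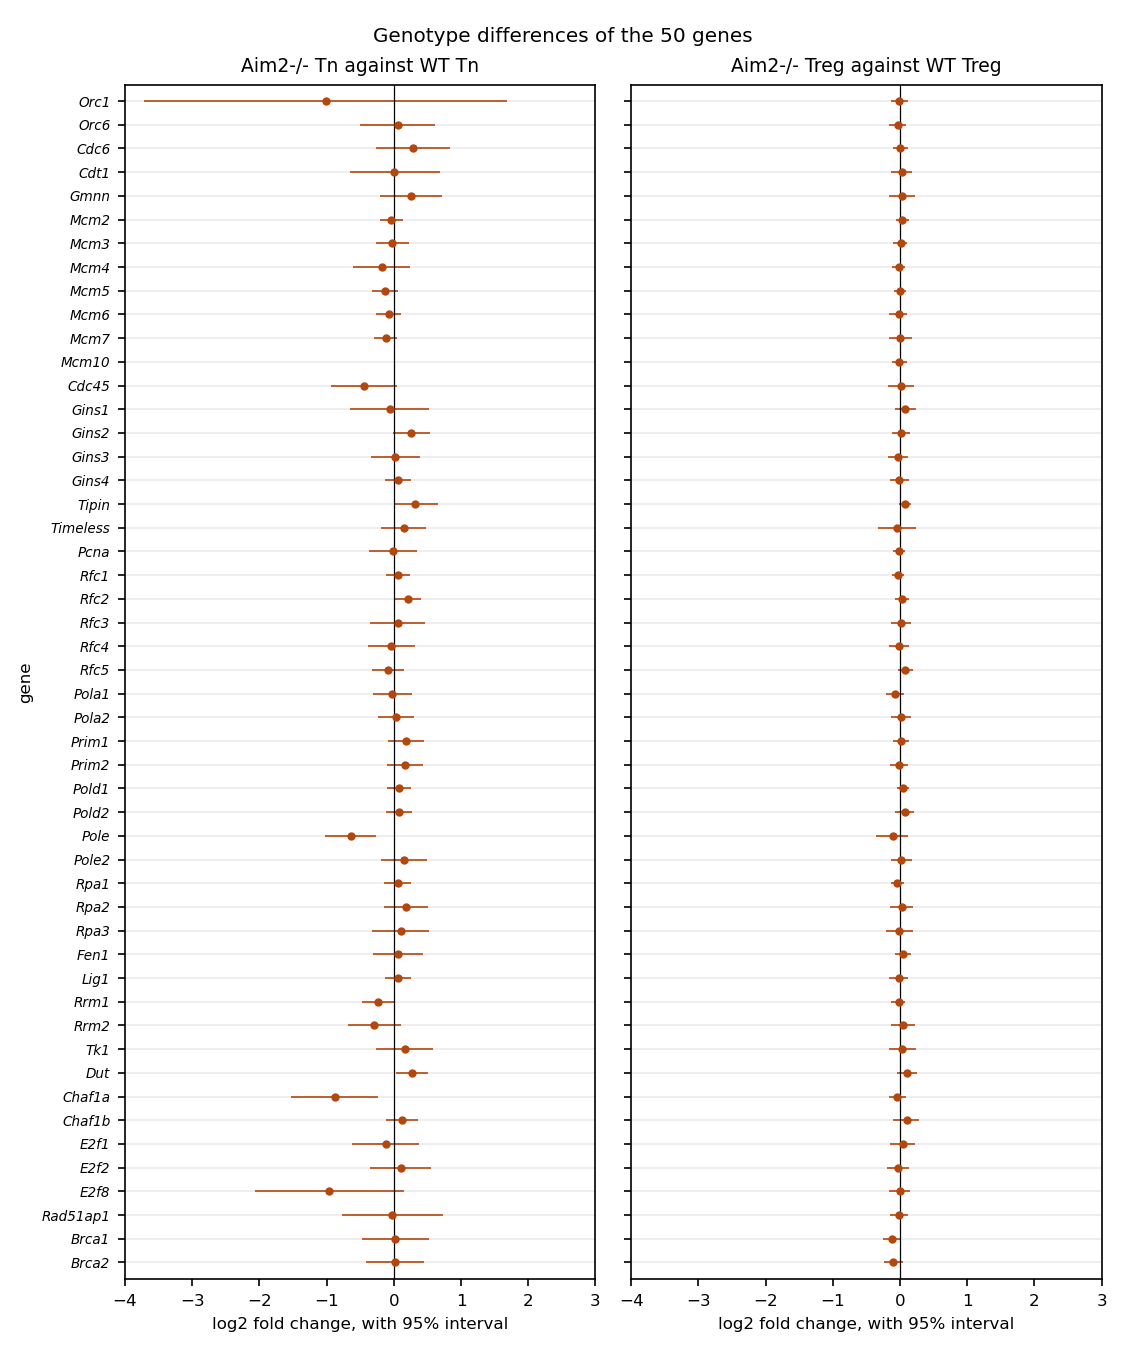
Log2 fold change of Aim2-/- against WT with its 95% interval for each gene, in Tn (left) and Treg libraries (right), on the same x axis, with 0 as the vertical line and Mcm10 not tested in Tn. Intervals are wide in Tn, most of all for Orc1, and in Treg every interval lies within 0.5 of 0.

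The spread of the WT Tn libraries bore on this comparison. The members' median coefficient of variation was 15.5% in WT Tn, 9.82% in Aim2-/- Tn, 5.12% in WT Treg and 5.55% in Aim2-/- Treg. In WT Tn 22 of the 50 were higher in both of replicates 1 and 2 than in both of replicates 3 and 4, and 20 were lower in both, 84% together against 68.4% of all genes tested, so that the split runs through the whole libraries. In Aim2-/- Tn the same replicate numbers split 30% of the members, against 40.3% of all genes tested. The means of the pairs differed by over 1.5-fold in 13 members in WT Tn and in 3 in Aim2-/- Tn. The share of all genes with such a difference was not counted. Licensing genes were among the higher in WT Tn replicates 1 and 2: besides Orc1, Cdt1 and Gmnn (above), Orc6 was at 33.5, 30.8, 14.5 and 17.2 CPM and Mcm4 at 129, 138, 78.2 and 82.8 CPM. Pcna, Rfc3 and Fen1 (above) and Rpa2, at 43.8, 47.9, 31.4 and 30.6 CPM, followed them. E2f2, Timeless, Cdc45 and Mcm10 (above) and Tipin, at 11.4, 11.2, 16.1 and 15.4 CPM, ran the other way. Not all members split in this way, and Mcm7 was at 74.3, 73.3, 73.4 and 69.7 CPM in the same libraries. The Aim2-/- Tn libraries lay between the WT pairs for Cdt1 (above) and for Orc6 (25.7, 27, 23.2 and 23.6 CPM).

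The p-values of the fits without a WT pair leave out the spread between the WT pairs. Without WT Tn replicates 1 and 2, 5 of 48 members passed the edgeR test in naïve cells, as did 3.00% of all genes. Orc6 (log2 0.64, adjusted p = 0.029), Cdt1 (0.65, adjusted p = 0.030), Gmnn (0.70, adjusted p = 0.040) and Rpa2 (0.48, adjusted p = 0.030) were higher and Pole (-0.83, adjusted p = 0.042) lower in Aim2-/-. Without replicates 3 and 4, 0 of 48 passed, as did 0.934% of all genes, and 14 had an unadjusted p under 0.05 (29.2%, against 25.1% of all genes). Without replicates 1 and 2 there were 12 such members (25%, against 19.5%). The 4 calls of higher members thus rested on which WT pair was used, while Pole was lower in Aim2-/- Tn than in either pair.

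**Figure D5:**
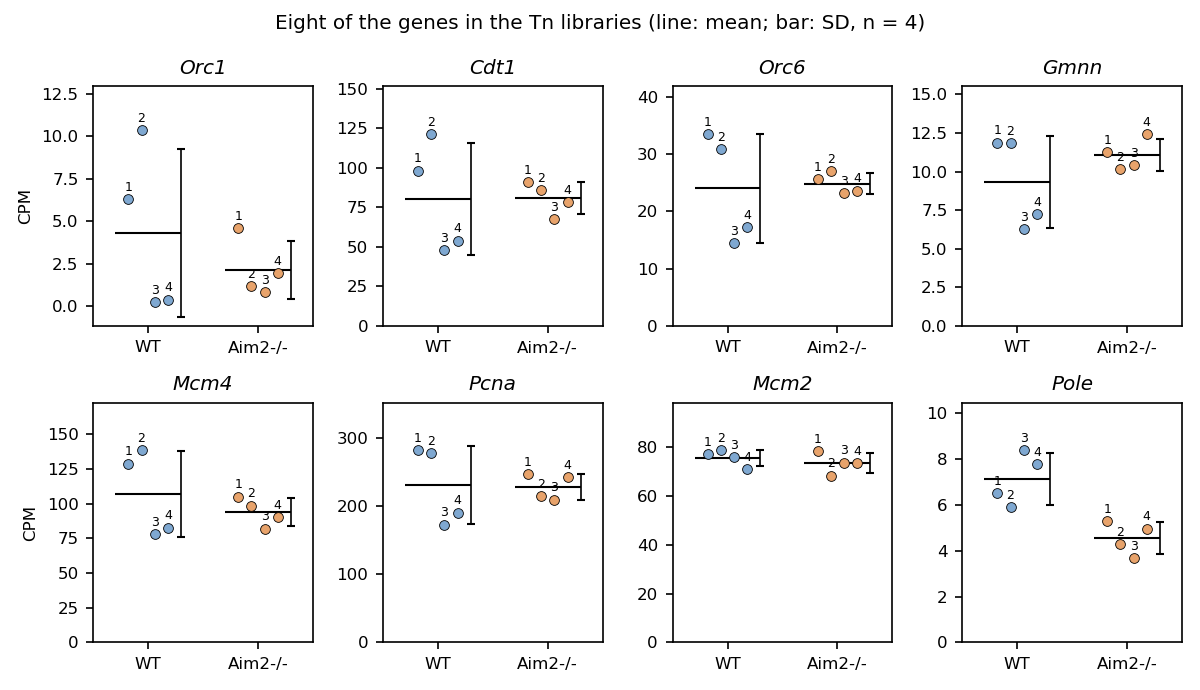
CPM (y axis, from 0 or below where the SD bar reaches under it) of 8 members in each WT and Aim2-/- Tn library, with the replicate number beside each point, the mean as a line and the SD (n = 4) as a bar. In Orc1, Cdt1, Orc6, Gmnn, Mcm4 and Pcna the WT replicates 1 and 2 sit above 3 and 4, in Mcm2 all 8 libraries are close, and in Pole all Aim2-/- points are below the WT points.

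After culture the genotypes were closer. In Treg libraries 0 of 50 members were called by edgeR, limma-voom or DESeq2, and 0 had an unadjusted p under 0.05 by any of them, where 0.219% of all genes were called and 2.31% had such a p in edgeR. The median difference was 0.00, from -0.12 for Brca1 to 0.11 for Dut, with 25 members above and 25 below 0. All 50 intervals lay within 0.5 of 0, the farthest bound at 0.35, so that a larger difference lay outside the interval of every member. In 1 member, Tipin, the genotypes did not overlap (2.00%, against 2.26% of all genes), at 159, 156, 152 and 158 CPM in WT cells and 166, 162, 164 and 166 CPM in Aim2-/- (log2 0.07 ± 0.04, unadjusted p = 0.11, adjusted p = 1.0). The smallest unadjusted p was that of Brca1 (log2 -0.12 ± 0.06, unadjusted p = 0.088), followed by Tipin, Rfc5 (log2 0.08 ± 0.05), Brca2 (log2 -0.10 ± 0.06) and Dut (log2 0.11 ± 0.07). The adjusted p of all was 1.0.

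In these cultures the same-numbered libraries of both genotypes held like levels of several members. Timeless and Pole (above) were higher in replicates 1 and 2 than in 3 and 4 in both genotypes, and Rrm2 was lower. In all, 16 members were higher and 7 lower in replicates 1 and 2 in both genotypes (46% together, against 33.4% of all genes tested), with the largest ratio between the pair means 1.27, for Timeless in each. Foxp3, no member, was at 560, 573, 496 and 278 CPM in WT Treg and at 560, 523, 329 and 288 CPM in Aim2-/- Treg. Whether the numbers mark a shared culture day was not stated.

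Whether culture acted differently in the genotypes was tested by the interaction, on all 16 libraries. Of the 50 members 0 were called, as were 0.0205% of all genes, with the smallest adjusted p 0.73. In edgeR 4 of the 50 members had an unadjusted p under 0.05, where 3.49% of all genes had such a p. There were 3 by limma-voom and 4 by DESeq2, for which the share of all genes was not counted, and neither tool called any member. The 4 in edgeR were Chaf1a (log2 0.87 ± 0.22, unadjusted p = 0.0012), Pole (log2 0.54 ± 0.18, unadjusted p = 0.01), E2f8 (log2 0.97 ± 0.38, unadjusted p = 0.019) and Cdc45 (log2 0.47 ± 0.20, unadjusted p = 0.032), each with the larger rise in Aim2-/- cells. Without WT Tn replicates 1 and 2 the interaction called Orc6 (log2 -0.67, adjusted p = 0.025) and Chaf1a (log2 1.14, adjusted p = 0.026), where 0.505% of all genes were called, and without replicates 3 and 4 it called E2f2 (log2 -0.64, adjusted p = 0.047), where 0.234% were. Without replicates 1 and 2, 13 of the 50 members had an unadjusted p under 0.05 in edgeR, where 10.3% of all genes had such a p. Without replicates 3 and 4 there were 17 of the 50, where 14.4% of all genes had such a p. In the fit with all libraries Rrm2 came next (log2 0.34 ± 0.17, unadjusted p = 0.066). In Treg libraries the difference between genotypes of these 5 was between -0.11 (Pole) and 0.04 (Rrm2), and in Tn libraries it was between -0.96 (E2f8) and -0.29 (Rrm2), all on the log2 scale.

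The members' levels per length changed order with culture. In WT Tn, Pcna (96.1 ± 23.8 CPM per kb, SD, n = 4) was followed by Rpa1 (35.2 ± 3.44), Mcm4 (29.8 ± 8.62) and Cdt1 (25.6 ± 11.3), and the ranges of 1 SD around Rpa1, Mcm4 and Cdt1 overlap. In WT Treg, Pcna (266 ± 5.76) was followed by Rrm2 (186 ± 13.6), Mcm6 (170 ± 10.1), Mcm3 (149 ± 6.0), Mcm5 (132 ± 4.12), Mcm4 (114 ± 1.23), Dut (110 ± 4.56) and Mcm7 (105 ± 9.36). The ranges of 1 SD overlap between Rrm2 and Mcm6, between Mcm4 and Dut and between Dut and Mcm7, and not between the other neighbours named. Brca2 was lowest in WT Treg at 4.50 ± 0.23 CPM per kb. Counts were whole in every library for 33 of the 50, and for the 17 others reads were shared with other genes in at least 1 library, in nearly all libraries for Orc1, Orc6, Mcm7, Gins2, Pcna, Rfc2, Rfc4, Rfc5, Pole2, Fen1 and Chaf1a, whose levels are to that extent uncertain.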

How the data were processed

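RNA from 16 libraries was analysed, 4 each of WT and Aim2-/- Tn and Treg cells, grouped and numbered by their deposited titles. The authors made stranded mRNA libraries, sequenced them single-end, used STAR for alignment to GRCm38 and RSEM with GENCODE m15 for quantification. Their text also names an Ensembl annotation, and the versions of STAR and RSEM and the strand setting were not given in the sources used here. Each deposited table gives, for 1 library, the expected count of 53090 genes, without scaling or filter. Expected counts are fractional where reads are shared between genes (9160 genes). Coordinates and exon lengths are from GENCODE M21 (52403 genes matched, 98.7%), and promoter windows from RefSeq on GRCm38.p6.

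Expected counts were rounded to whole numbers. A gene was tested where 4 or more libraries of a comparison had 10 or more counts, with edgeR 4.0.16 in R 4.3.3 (TMM, robust quasi-likelihood fit, two-sided F test), on the 8 libraries compared, and the interaction on all 16, with Benjamini-Hochberg adjustment over all genes tested and a threshold of 0.05. SE is the log2 fold change over the root of F. CPM uses TMM factors, and the score a prior count of 2. The alternatives were DESeq2 1.42.0, limma-voom (limma 3.58.1), RLE size factors, library totals, other filters, 1 joint fit, the replicate block, a GC and length correction (smooth fits with 5 degrees of freedom), each library left out, and other forms of the score. Leaving out either pair of WT Tn replicates was added after seeing the data. The members and gene lists were chosen with earlier results of these data known. Values of every library are given for representatives of each role chosen with them, for the extremes of each comparison and for the smallest p-values between genotypes.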

Additional observations from a re-analysis of the deposited data

Results flagged for a closer look

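In 124 combinations of a group with a named gene or the score, the highest or lowest of the 4 libraries was set against the gap to its nearest neighbour, and 4 stood out at the 95% level (Dixon's ratio above 0.829), where chance gives about 1 in 20. All 4 are in Treg libraries. Gins2 was at 73.2 CPM in WT Treg replicate 1, against 64.3 to 65.5 CPM in the other three. Brca1 was at 94.6 CPM in WT Treg replicate 3, against 85.8 to 87.3 CPM. In Aim2-/- Treg replicate 4, Prim1 was at 94.2 CPM, against 87.0 to 87.8 CPM, and E2f2 at 89.2 CPM, against 107 to 108 CPM. No 2 of these genes share a role, and in each the genotypes were not called different in Treg cells.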

How the results depend on the processing

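No call changed direction under any alternative run, and among values of the genes named by rule in a comparison 1468 kept their side of the threshold and 11 newly passed it, 8 of Cdt1 with culture in WT, 2 of Pole between Tn genotypes and 1 of Chaf1a in the interaction. Outside that tally, calls added without a WT Tn pair were Orc6, Cdt1, Gmnn and Rpa2 between Tn genotypes and Orc6 and E2f2 in the interaction. Members called in the Tn comparison numbered 0, but 1 in DESeq2 and 5 without WT Tn replicates 1 and 2, and in the interaction 0, but 2 without that pair and 1 without replicates 3 and 4. The median log2 change with culture (2.77 in WT, 2.80 in Aim2-/-) was 2.82 and 2.84 without a filter and 2.71 and 2.74 with at least 10 counts in every library (47 and 48 members tested), and 2.62 in WT without Tn replicates 3 and 4, which put the Tn median at -0.01. The difference in score with culture (3.26 in WT, 3.28 in Aim2-/-) was 2.84 and 2.86 as a median over members and 1.92 and 1.89 with each gene divided by its SD. The score difference between genotypes was 0.04 in Tn on that last scale (-0.01 otherwise), and in Treg 0.03 as a median and -0.02 on library totals (0.01 otherwise). Leaving out 1 library, medians ran from 2.67 to 2.84 (WT culture), 2.72 to 2.86 (Aim2-/- culture), 0.02 to 0.06 (Tn) and -0.01 to 0.01 (Treg), scores from 3.24 to 3.28, 3.27 to 3.30, -0.03 to 0.01 and 0.00 to 0.02 in the same order, and members called in WT from 49 to 50.

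Same-numbered libraries of the genotypes deviated together with correlations of 0.33, 0.06, 0.50 and 0.11 in Tn and 0.68, 0.50, 0.04 and 0.62 in Treg, and 4 of 8 Tn and 5 of 8 Treg libraries deviated most with their own number. As 1 pair in each state lay under 0.1 and no label ties the numbers to a shared day, they were not used as pairs, but a shared source of some pairs was not tested. With the number as a block, 50 members were called in WT culture (Cdt1 added, adjusted p = 0.021), 50 in Aim2-/- culture and 0 in each comparison of genotypes and in the interaction. Tn levels near the floor limit Mcm10 and E2f8, whose folds are imprecise.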
